A study of Homo sapiens with 30 samples.

Results

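The transcripts of 10 genes that govern passage through the G1 phase of the cell cycle were followed in 12 RNA-seq libraries of the human multiple myeloma lines H929 and OPM2. The genes are the D cyclins CCND1, CCND2 and CCND3, their kinases CDK4 and CDK6, the kinase inhibitors CDKN2C and CDKN1B, the retinoblastoma gene RB1, and the E cyclins CCNE1 and CCNE2. They were picked by symbol among the 25680 gene symbols of the deposited files, and all 10 were found. Each was represented by the transcript row whose count, averaged over all 12 libraries, was highest. The groups were H929 with 100 nM dBRD9-A, H929 with DMSO, OPM2 with 100 nM dBRD9-A, and OPM2 with DMSO. Each group, with dBRD9-A or DMSO, was treated for 24 h and had 3 libraries. dBRD9-A is a compound that degrades the protein BRD9, a bromodomain protein of non-canonical BAF, a chromatin remodelling complex, and DMSO is its solvent. The labels give no engineered allele for these groups. Each line is an established culture, so replicates speak only for that line. Another 18 of the 30 samples listed were not analysed here.

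D cyclins are made in response to growth signals and bind CDK4 or CDK6, and the active kinase then phosphorylates the RB1 protein. Phosphorylated RB1 releases E2F factors, which switch on the E cyclins, the partners of CDK2, and the genes of DNA replication. CDKN2C binds CDK4 and CDK6 and blocks D cyclin kinase, whereas CDKN1B mainly restrains the CDK2 complexes. In myeloma, raised expression of a D cyclin is described in most tumours, and deletion of CDKN2C is a recurrent lesion.

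Library totals ranged from 24524193 to 76600945 counts. OPM2 dBRD9-A replicate 2 stood apart. It held the lowest total, and the next lowest was 42895389 counts. The SD of its log2 deviation from the other libraries of its group was 0.79 over 9355 symbols, against 0.11 to 0.24 for the libraries of the other 3 groups. Its deviation fell with the GC content of the transcript (Spearman correlation -0.70 across symbols), so results are given with and without it where it moves them. GC trends were not confined to this library. The correlation was -0.63, 0.65 and -0.20 for H929 dBRD9-A replicates 1, 2 and 3. DMSO replicates 1, 2 and 3 had 0.06, 0.18 and -0.29 (H929) or 0.41, 0.14 and -0.46 (OPM2). OPM2 dBRD9-A replicates 1 and 3 had 0.64 and 0.71, but they were compared with replicate 2 among others. All 10 plasma cell markers reached 1 CPM in every group, with summed levels of 9192 to 10412 CPM under dBRD9-A and 15587 to 16886 CPM under DMSO in H929. In OPM2 these sums were 6518 to 7593 CPM with dBRD9-A and 11771 to 14099 CPM with DMSO. Of these sums, IGJ averaged 4390 CPM with dBRD9-A and 9643 CPM with DMSO in H929. In OPM2, IGJ averaged 2436 CPM with dBRD9-A and 7146 CPM with DMSO. XBP1 was higher with dBRD9-A in OPM2, at 1757 CPM against 1476 CPM. The test described below called 3 of the 10 lower and 0 higher in each line. Lower calls made up 5.67% of all symbols in H929 and 7.34% in OPM2. Of 29 markers of B, T, NK, myeloid, stromal and epithelial cells, 7 reached 1 CPM in H929 with either treatment and 1, CD79B, in OPM2. The T and NK markers summed to 39.6 to 41.6 CPM with dBRD9-A and 27.1 to 30.2 CPM with DMSO in H929. CD3E held 37.7 CPM of this with dBRD9-A and 24.1 CPM with DMSO on average, GNLY 1.54 CPM with dBRD9-A and 3.70 CPM with DMSO, and CD3D was at 0.0189 CPM and 0 CPM there. The stromal and epithelial markers summed to 15.2 to 26.1 CPM with dBRD9-A and 8.47 to 11.4 CPM with DMSO in H929. KRT18 averaged 13.0 CPM of this with dBRD9-A and 6.89 CPM with DMSO. KRT8 averaged 5.83 CPM with dBRD9-A and 2.67 CPM with DMSO, and COL1A1 1.81 CPM and 0.217 CPM. COL1A2 and COL3A1 were at 0 there. Of the stromal and epithelial markers, 2 of the 3 tested rose in each line. Higher calls made up 7.33% of all symbols in H929 and 10.1% in OPM2. In H929, 1 of 2 tested myeloid markers rose, and of 4 tested T and NK markers 1 rose and 1 fell. In OPM2, 0 of these were called. The myeloid marker CSF1R averaged 7.76 CPM with dBRD9-A and 2.45 CPM with DMSO in H929. The B cell and myeloid markers summed to at most 15.4 CPM in any library. The part of these markers in the results below was not tested. BRD9 itself averaged 63.6 ± 6.80 CPM with dBRD9-A and 87.7 ± 13.5 CPM with DMSO in H929, and 76.3 ± 8.04 CPM with dBRD9-A and 89.7 ± 4.02 CPM with DMSO in OPM2 (SD, n = 3). The compound acts on the protein, which was not measured. In bulk RNA, fewer cells that express a gene and less RNA per cell cannot be told apart.

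All levels below are CPM, counts scaled to the library total corrected by TMM factors, listed for replicates 1, 2 and 3. A gene was called when edgeR's quasi-likelihood test, adjusted by the Benjamini-Hochberg method over 16408 symbols, gave an adjusted p under 0.05. Between the lines the log2 fold change also had to reach 1 in size. Of the 10 genes, 4 were called with dBRD9-A in H929, where 13.0% of all symbols tested were called. Of these, 3 were lower and 1 was higher, against 5.67% and 7.33% of all symbols. Of the 9 genes with counts in OPM2, 2 were called with dBRD9-A there, where 17.4% of all symbols were called. Both were lower and 0 were higher, against 7.34% and 10.1% of all symbols. In DMSO, 6 of the 10 genes differed between the lines, against 36.3% of all symbols. Of these, 4 were higher and 2 lower in H929, against 21.4% and 15.0% of all symbols. The median log2 fold change with dBRD9-A was -0.21 over the 10 genes in H929, against 0.00 over all symbols tested. It was -0.03 over 9 genes in OPM2, against 0.03 over all symbols. The plot of levels by library shows each of the 10 genes on a scale of its own.

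**Figure D1:**
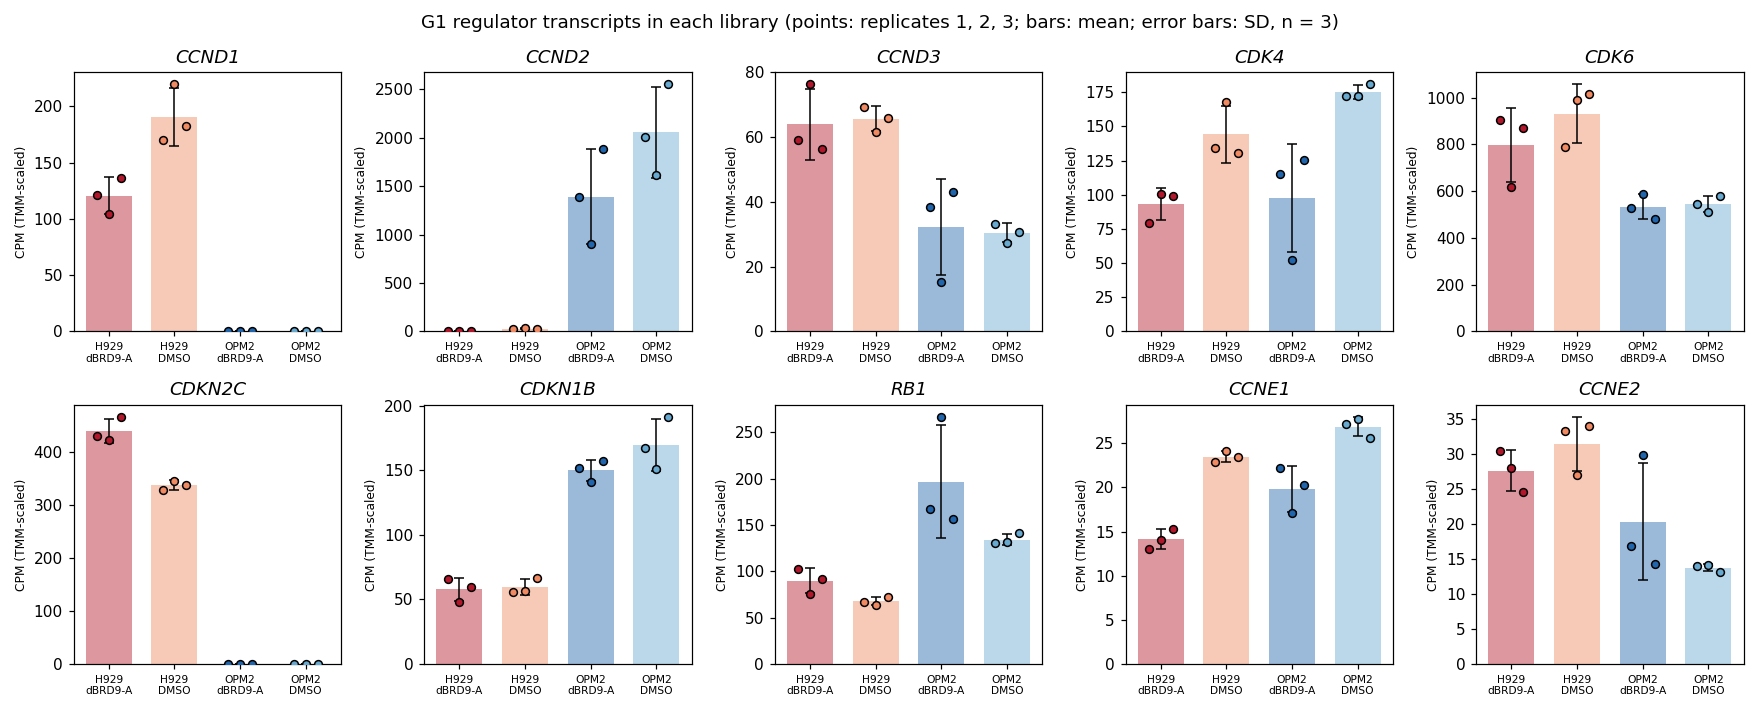
TMM-scaled CPM (y axis, linear, a separate scale for each gene) of the 10 genes in each library, by line and treatment (x axis). Points are replicates 1, 2 and 3, bars the mean and error bars the SD (n = 3). CDKN2C and CCND1 are seen in H929 and are at or near 0 in OPM2, and CCND2 is seen mainly in OPM2, where the lowest library is at 899 CPM.

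The lines expressed different D cyclins. CCND2, the D cyclin commonly expressed in lymphoid cells, was the main one in OPM2, and CCND1, which resting B cells and plasma cells normally do not express, led in H929. CCND1 had 169.8, 219.7 and 182 CPM in H929 with DMSO, whereas the 3 OPM2 libraries with DMSO held 14 CCND1 counts in all, a mean of 0.0668 CPM. No library of a line came near those of the other. On the log2 scale H929 was above OPM2 by 11.46 ± 0.32 (SE; adjusted p = 6.96e-11).

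CCND2 went the other way. It had 21.2, 38.5 and 24.9 CPM in H929 with DMSO, against 2005, 1615 and 2554 CPM in OPM2 with DMSO. The highest H929 library was far below the lowest OPM2 library. H929 over OPM2 gave a log2 fold change of -6.19 ± 0.37 (adjusted p = 2.91e-08), or 73.0-fold lower in H929. CCND3, the most broadly expressed D cyclin, had 69.2, 61.6 and 65.9 CPM in H929 with DMSO, against 33.2, 27.3 and 30.8 CPM in OPM2 with DMSO. All H929 libraries were above all OPM2 libraries, and the log2 fold change was 1.11 ± 0.28 (adjusted p = 0.00468). This call was lost when library size alone was used for scaling, with 0.99, and when the GC trend was removed, with 0.93, because the fold then fell short of the threshold.

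Per kilobase of transcript, the scale on which genes can be compared, the D cyclins summed to 74.1 ± 6.0 CPM per kb in H929 with DMSO and 327 ± 72.9 CPM per kb in OPM2 with DMSO (SD, n = 3). OPM2 thus held 4.42 times the D cyclin transcripts of H929. CCND2 made up 5.76% of this sum in H929 with DMSO and 96.3% in OPM2 with DMSO. The H929 sum was 59.8% CCND1 and 34.5% CCND3. In OPM2, CCND2 stood above 98.8% of all symbols tested in CPM per kb. The plot of D cyclins per kilobase shows this split in each library.

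**Figure D2:**
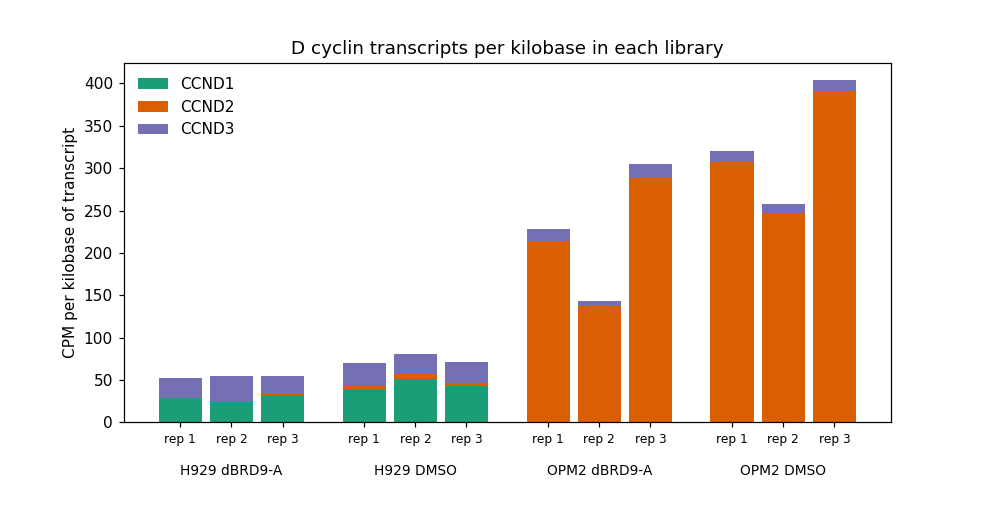
CPM per kilobase of transcript (y axis) for CCND1, CCND2 and CCND3, stacked, in each library (x axis, replicates 1 to 3 of each group). The OPM2 bars are nearly all CCND2, and the H929 bars are mainly CCND1 and CCND3.

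With dBRD9-A, CCND1 and CCND2 fell in H929, while CCND3 was not called. CCND2 had 5.50, 4.30 and 7.69 CPM in H929 with dBRD9-A, against 21.2, 38.5 and 24.9 CPM in H929 with DMSO. Each treated library was below each DMSO library. The log2 fold change was -2.27 ± 0.32 (adjusted p = 0.00125), 4.82-fold lower with the compound, and it was called in 23 of 23 alternative analyses. CCND1 had 121, 104 and 136 CPM in H929 with dBRD9-A, against 169.8, 219.7 and 182 CPM in H929 with DMSO. The groups did not overlap, and CCND1 fell by 0.66 ± 0.18 on the log2 scale (adjusted p = 0.0357). That call was less stable, since leaving out any of the 6 H929 libraries or OPM2 DMSO replicate 1 ended it (adjusted p 0.0597 to 0.198 in these fits). Without OPM2 dBRD9-A replicate 2 its adjusted p was 0.000636. In all, 13 of 23 alternatives called the fall of CCND1.

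CCND3 had 59.0, 76.3 and 56.4 CPM in H929 with dBRD9-A, against 69.2, 61.6 and 65.9 CPM in H929 with DMSO. These groups overlapped, and its log2 fold change of -0.04 ± 0.28 changed sign under several scalings. The D cyclin sum was 53.7 ± 1.54 CPM per kb in H929 with dBRD9-A and 74.1 ± 6.0 CPM per kb in H929 with DMSO. CCND1 made up 52.4% of the sum with dBRD9-A and 59.8% with DMSO, CCND3 made up 46.0% and 34.5%, and CCND2 made up 1.66% and 5.76%.

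In OPM2, 0 of the 3 D cyclins were called with dBRD9-A by edgeR on all 12 libraries, and 0 had an unadjusted p under 0.05. DESeq2 also called 0, and limma-voom with sample weights called CCND3 (0.35 ± 0.11, adjusted p = 0.0121). CCND2 had 1393, 899 and 1883 CPM in OPM2 with dBRD9-A, against 2005, 1615 and 2554 CPM in OPM2 with DMSO. Replicate 3 with dBRD9-A lay above replicate 2 with DMSO, so the groups overlapped. The log2 fold change was -0.56 ± 0.30 (adjusted p = 0.209), and -0.34 ± 0.24 without OPM2 dBRD9-A replicate 2 (adjusted p = 0.303). CCND1 stayed at 7, 6 and 6 counts with dBRD9-A, against 5, 7 and 2 counts with DMSO, too few to measure a response.

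CCND3 depended on the library that stood apart. It had 38.5, 15.3 and 42.9 CPM in OPM2 with dBRD9-A, against 33.2, 27.3 and 30.8 CPM in OPM2 with DMSO. Replicate 2 was the lowest of the 6 and the other treated libraries were the highest. Its log2 fold change was 0.09 ± 0.28 (adjusted p = 0.863) with all libraries and 0.41 ± 0.12 (adjusted p = 0.0198) without replicate 2. The D cyclin sum was 226 ± 80.8 CPM per kb in OPM2 with dBRD9-A and 327 ± 72.9 CPM per kb in OPM2 with DMSO, and 267 ± 54.3 CPM per kb (n = 2) with dBRD9-A without replicate 2. CCND2 made up 94.6% of the sum with dBRD9-A and 96.3% with DMSO.

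The difference between the responses of the lines, H929 minus OPM2, was tested as an interaction. None of the 9 genes with counts in both lines was called by edgeR, where 0.579% of all symbols were called. At an unadjusted p under 0.05 there were 3 genes, CCND1, CCND2 and CCNE2, against 8.60% of all symbols. DESeq2 called 1 gene and limma-voom with sample weights called 1 gene, in both cases CCND2. Of the 16408 symbols, DESeq2 called 372 and limma-voom called 882. For CCND2 the difference was -1.70 ± 0.43 on the log2 scale (adjusted p = 0.137), with -2.27 in H929 and -0.56 in OPM2. It was -1.69 by DESeq2 (adjusted p = 0.0113), -1.66 by limma-voom (adjusted p = 0.00464) and -1.88 ± 0.33 by edgeR without OPM2 dBRD9-A replicate 2 (adjusted p = 0.00515). The CCND1 difference of -1.54 ± 0.54 (adjusted p = 0.366) rests on the few counts in OPM2.

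CDK4 and CDK6 are the catalytic partners of the D cyclins. CDK4 had 115, 52.4 and 125 CPM in OPM2 with dBRD9-A, against 172, 172 and 181 CPM in OPM2 with DMSO. Every treated library was below every DMSO library, and replicate 2 was lowest. CDK4 fell by 0.84 ± 0.25 on the log2 scale (adjusted p = 0.0389), 1.79-fold lower with dBRD9-A. The value was -0.55 ± 0.12 (adjusted p = 0.00236) without replicate 2. Leaving out any OPM2 DMSO or any H929 library ended the call, with adjusted p between 0.0505 and 0.105 and log2 fold changes from -0.86 to -0.82. In all, 11 of 23 alternatives called it.

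In H929, CDK4 had 79.6, 101 and 99.3 CPM with dBRD9-A, against 134, 168 and 130.5 CPM with DMSO. The groups did not overlap here either, but the log2 fold change of -0.63 ± 0.25 was not called (adjusted p = 0.122). It was called when OPM2 dBRD9-A replicate 2 did not enter the spread shared by all groups (-0.60 ± 0.10, adjusted p = 0.000472). Limma-voom (adjusted p = 0.000584) and edgeR on H929 alone (adjusted p = 0.00316) also called it. In all, 4 of 23 alternatives called CDK4 in H929. The difference of the responses was 0.21 ± 0.35 (adjusted p = 0.874). In DMSO the log2 fold change of H929 over OPM2 was -0.28 ± 0.25 and was not called (adjusted p = 0.355).

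The promoter of CDK4 is a textbook target of MYC, the transcription factor that binds the E-box CACGTG. MYC transcripts averaged 64.5 ± 21.3 CPM with dBRD9-A and 212 ± 71.6 CPM with DMSO in H929, and 115 ± 18.9 CPM with dBRD9-A and 291 ± 6.4 CPM with DMSO in OPM2 (SD, n = 3). RefSeq promoter windows of build GRCh38.p14 matched 7 of the 10 genes, and CCND1, CCND2 and CCNE2 had none. Each window was searched on both strands for CACGTG, for TGACGT, the core bound by CREB and ATF factors, and for TTTCCCGC and TTTGGCGC, forms of the E2F site. No motif contains another. Of 35116 windows of equal length, 6.34% held CACGTG, 7.10% held TGACGT, 1.39% held TTTCCCGC and 0.550% held TTTGGCGC. The 250 bases before the start of the 3 genes with windows that were called in a treatment comparison are shown because these members carry the changes described. The CDK4 stretch, on the minus strand at chr12:57752311-57752560, holds CACGTG 3 times, in capitals. The stretch of CCNE1, on the plus strand at chr19:29811741-29811990, holds none of the 4 motifs.
CDK4: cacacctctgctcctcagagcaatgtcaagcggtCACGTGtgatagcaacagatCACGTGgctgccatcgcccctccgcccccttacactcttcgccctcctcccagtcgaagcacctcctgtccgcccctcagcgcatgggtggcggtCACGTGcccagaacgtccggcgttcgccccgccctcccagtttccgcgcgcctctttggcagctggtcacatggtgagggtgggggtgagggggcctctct
CCNE1: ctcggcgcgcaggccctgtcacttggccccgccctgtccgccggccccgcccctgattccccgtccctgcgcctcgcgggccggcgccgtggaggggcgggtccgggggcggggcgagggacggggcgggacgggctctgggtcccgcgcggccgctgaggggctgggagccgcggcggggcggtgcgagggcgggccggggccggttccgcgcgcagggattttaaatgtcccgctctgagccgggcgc
The most upstream CDKN2C stretch, on the plus strand at chr1:50960495-50960744, holds CACGTG and TGACGT once each, in capitals.
CDKN2C: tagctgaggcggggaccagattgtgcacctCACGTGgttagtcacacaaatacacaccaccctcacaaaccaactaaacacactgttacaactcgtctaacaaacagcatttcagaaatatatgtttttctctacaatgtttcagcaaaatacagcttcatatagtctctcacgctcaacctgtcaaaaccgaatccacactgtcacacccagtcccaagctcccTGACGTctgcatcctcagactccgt
The counts were made on build hg19 and these positions are of GRCh38.p14. Another CDKN2C window, from chr1:50969995, holds CACGTG and TGACGT as well and is not shown. Such matches are descriptions of the letters and not of binding. Whether MYC has a part in the changes of CDK4 or CDKN2C was not tested.

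CDK6, the D cyclin kinase most abundant in blood cells, was not called with the compound in either line. It had 906, 616 and 869 CPM in H929 with dBRD9-A, against 788, 991 and 1017 CPM in H929 with DMSO. In OPM2 it had 529.9, 589 and 481 CPM with dBRD9-A, against 544, 510.0 and 580.5 CPM with DMSO. The groups overlapped in both lines, and the log2 fold changes were -0.23 ± 0.16 (adjusted p = 0.396) in H929 and -0.03 ± 0.16 (adjusted p = 0.921) in OPM2. In DMSO, H929 was above OPM2 by 0.77 ± 0.16 (adjusted p = 0.00099), under the fold threshold. Of all symbols, 60.2% had an adjusted p under 0.05 between the lines at any size of change. CDK4 made up 40.8% of the summed CDK4 and CDK6 CPM per kb with dBRD9-A and 47.3% with DMSO in H929. In OPM2 it made up 50.0% with dBRD9-A and 65.1% with DMSO, and 58.0% with dBRD9-A without replicate 2.

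CDKN2C was the inhibitor that differed most between the lines. No OPM2 library, treated or not, held a single CDKN2C count. In H929 with DMSO it had 327, 345 and 337 CPM, so it was at least 23970.4-fold higher than in OPM2 with DMSO, taking 3 counts over the 3 OPM2 DMSO libraries (0.0140 CPM) as the floor. The bound covers counting error only. Per kilobase, CDKN2C stood above 97.2% of all symbols tested in H929 with DMSO. With dBRD9-A it had 429, 423 and 465 CPM in H929, all above the DMSO libraries, and it rose by 0.38 ± 0.11 on the log2 scale (adjusted p = 0.0494), or 1.30-fold. The adjusted p is just under the threshold. Leaving out any library other than OPM2 dBRD9-A replicates 2 and 3 ended the call, with adjusted p up to 0.131. It was 0.00134 without OPM2 dBRD9-A replicate 2. In all, 11 of 23 alternatives called the rise.

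The neighbours of CDKN2C in the RefSeq gene order of chromosome 1 were read because it had no counts in OPM2, a choice made after its values were seen. FAF1, which encodes a factor that binds the death receptor FAS, starts 478 bases from the most upstream CDKN2C start in GRCh38.p14 and is transcribed in the opposite direction. FAF1 averaged 81.7 ± 4.78 CPM in H929 with dBRD9-A and 92.7 ± 4.65 CPM in H929 with DMSO, while the OPM2 libraries held 0 counts with dBRD9-A and 1 count with DMSO. RNF11, 2 genes beyond CDKN2C on the other side, averaged 81.9 ± 14.2 CPM in H929 with dBRD9-A and 77.9 ± 2.41 CPM in H929 with DMSO. In OPM2 it averaged 47.0 ± 5.22 CPM with dBRD9-A and 48.6 ± 4.66 CPM with DMSO. The gene between them, C1orf185, held 8 counts in H929 with dBRD9-A, 6 counts in H929 with DMSO and 0 counts in OPM2. On the FAF1 side, DMRTA2 and ELAVL4 held 0 counts in OPM2 and at most 7 counts in an H929 group. The next gene there, BEND5, held 112 counts in OPM2 with dBRD9-A and 93 counts in OPM2 with DMSO. Across these 5 neighbouring genes, ELAVL4, DMRTA2, FAF1, CDKN2C and C1orf185, the OPM2 libraries held 1 count, while in H929 FAF1 and CDKN2C were abundant and the other 3 were near 0. BEND5 on one side and RNF11 on the other were counted in OPM2. The DNA was not measured.

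**Figure D3:**
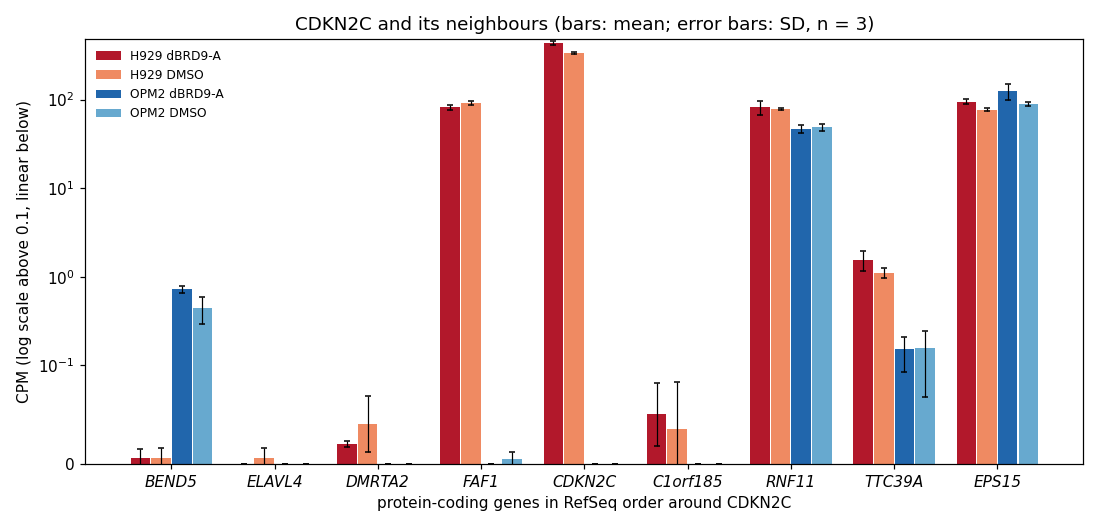
Mean TMM-scaled CPM (y axis, log scale above 0.1 and linear below) of CDKN2C and the 4 protein-coding genes on each side of it in RefSeq order (x axis), in each group. Bars are means and error bars the SD (n = 3). FAF1 and CDKN2C are high in H929 and at or near 0 in OPM2, while RNF11 and EPS15 are seen in both lines.

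CDKN1B, which binds cyclin and CDK2 complexes, had 65.8, 48.3 and 60.0 CPM in H929 with dBRD9-A, against 55.6, 56.3 and 66.8 CPM in H929 with DMSO. In OPM2 it had 152, 141 and 157 CPM with dBRD9-A, against 167, 151 and 191 CPM with DMSO. The treated and DMSO groups overlapped in both lines, and neither response was called, with -0.04 ± 0.14 (adjusted p = 0.909) in H929 and -0.18 ± 0.14 (adjusted p = 0.388) in OPM2. The line difference was larger than either. In DMSO the log2 fold change of H929 over OPM2 was -1.51 ± 0.14 (adjusted p = 1.31e-06), 2.85-fold lower in H929, and it was called in 22 of 22 alternatives. OPM2, with no CDKN2C counts, held more CDKN1B transcripts than H929, and a link between these was not tested.

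RB1, the pocket protein that D cyclin kinases phosphorylate, had 102, 75.6 and 92.0 CPM in H929 with dBRD9-A, against 66.6, 63.9 and 72.4 CPM in H929 with DMSO. In OPM2 it had 167, 266 and 156 CPM with dBRD9-A, against 130.0, 131 and 142 CPM with DMSO. Treated libraries were above all DMSO libraries in both lines, yet RB1 was not called in either by edgeR, with 0.41 ± 0.18 (adjusted p = 0.172) in H929 and 0.55 ± 0.18 (adjusted p = 0.0590) in OPM2. Without OPM2 dBRD9-A replicate 2, the highest library, the values were 0.44 ± 0.10 (adjusted p = 0.00313) in H929 and 0.25 ± 0.11 (adjusted p = 0.0934) in OPM2. RB1 levels were higher in every treated library than in any DMSO library of the line, but the OPM2 value was smaller without replicate 2. The call depended on the analysis, since RB1 was called in 5 of 23 alternatives in H929 and in 8 of 23 in OPM2. Limma-voom called it in both lines (adjusted p = 0.00207 in H929 and 0.00741 in OPM2), and DESeq2 called it in OPM2 (adjusted p = 0.0284) but not in H929 (adjusted p = 0.126). In DMSO, H929 was below OPM2 by -0.99 ± 0.19 (adjusted p = 0.000537), just short of the fold threshold, which it passed in 12 of 22 alternatives.

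CCNE1, an E cyclin that activates CDK2 and is itself an E2F target, fell with dBRD9-A in both lines. It had 13.0, 14.1 and 15.3 CPM in H929 with dBRD9-A, against 22.9, 24.1 and 23.4 CPM in H929 with DMSO. In OPM2 it had 22.2, 17.1 and 20.3 CPM with dBRD9-A, against 27.2, 27.8 and 25.6 CPM with DMSO. Neither line showed overlap. The log2 fold change was -0.73 ± 0.12 (adjusted p = 0.00293) in H929, called in 23 of 23 alternatives. In OPM2 it was -0.44 ± 0.12 (adjusted p = 0.0287), and -0.35 ± 0.09 (adjusted p = 0.0104) without replicate 2. Leaving out OPM2 DMSO replicate 1, 2 or 3 ended the OPM2 call, with adjusted p of 0.0886, 0.102 and 0.0635. The OPM2 fall was called in 17 of 23 alternatives, with adjusted p up to 0.121. The difference of the responses was -0.29 ± 0.17 (adjusted p = 0.657), and in DMSO the log2 fold change of H929 over OPM2 was -0.20 ± 0.12 (adjusted p = 0.181).

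CCNE2, the other E cyclin, was not called with the compound. It had 30.4, 28.0 and 24.6 CPM in H929 with dBRD9-A, against 33.3, 27.0 and 34.1 CPM in H929 with DMSO, and these groups overlapped. In OPM2 it had 16.9, 29.9 and 14.3 CPM with dBRD9-A, against 14.0, 14.1 and 13.2 CPM with DMSO. There the treated libraries were all above the DMSO libraries, with replicate 2 far above the rest. The log2 fold change was -0.18 ± 0.22 (adjusted p = 0.655) in H929 and 0.56 ± 0.23 (adjusted p = 0.108) in OPM2, where it was 0.17 ± 0.12 (adjusted p = 0.324) without replicate 2. In DMSO, CCNE2 was 2.28-fold higher in H929 than in OPM2 (log2 fold change 1.19 ± 0.23, adjusted p = 0.000601). CCNE1 made up 41.8% of the summed E cyclin CPM per kb with dBRD9-A and 51.2% with DMSO in H929. In OPM2 it made up 58.5% with dBRD9-A and 73.2% with DMSO, and 65.6% with dBRD9-A without replicate 2.

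Counting genes whose treated libraries did not overlap the DMSO libraries gives 6 of 10 in H929, against 45.5% of all symbols, and 4 of 9 in OPM2, against 37.7%. The genes in H929 were CCND1, CCND2, CDK4 and CCNE1, which were lower, and CDKN2C and RB1, which were higher. In OPM2 they were CDK4 and CCNE1, which were lower, and RB1 and CCNE2, which were higher. All 10 genes were without overlap between the lines in DMSO, as were 78.7% of all symbols. The plot of responses sets the log2 fold changes of both lines side by side.

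**Figure D4:**
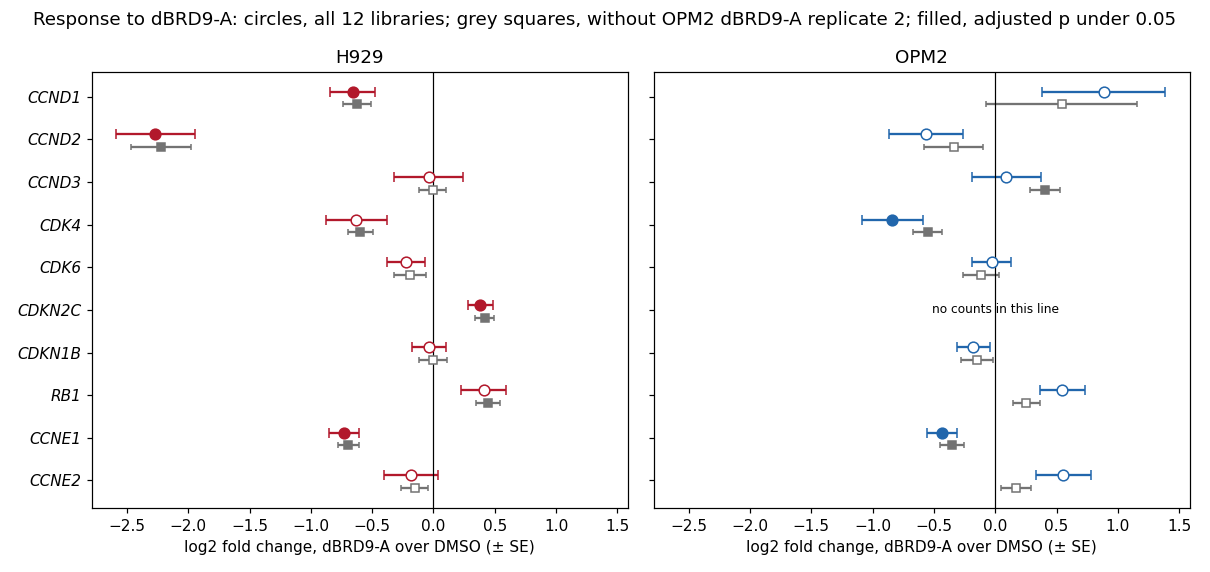
Log2 fold change of dBRD9-A over DMSO (x axis, error bars ± SE) for each gene (y axis) in H929 and OPM2. Circles are the fit to all 12 libraries and grey squares the fit without OPM2 dBRD9-A replicate 2, filled where the adjusted p is under 0.05. CCND2 in H929 lies at -2.27, and CCNE1 is filled in both lines under both fits.

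The deviation of the library that stood apart followed GC content in part of the 9 genes with counts in OPM2. CCND3, with 59.7% GC, differed by -1.41 on the log2 scale between OPM2 dBRD9-A replicate 2 and the mean of replicates 1 and 3, and CDK4, with 53.6% GC, differed by -1.20. RB1, with 37.3% GC, was higher there by 0.72, and CCNE2, with 35.4% GC, by 0.94. CDK6, with 39.5% GC, was higher by 0.22, and CDKN1B, with 47.7% GC, differed by -0.13. Other genes lay off this order. CCND2, with 45.5% GC, differed by -0.85, more than CCNE1, which has 52.9% GC and differed by -0.31. CCND1, with 50.3% GC, was higher by 1.30, on few counts. With the GC trend removed in every library, the OPM2 value was 0.31 ± 0.15 for CCND3 (adjusted p = 0.135) and 0.35 ± 0.08 for RB1 (adjusted p = 0.00524). The plot against GC content shows all genes with counts in OPM2.

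**Figure D5:**
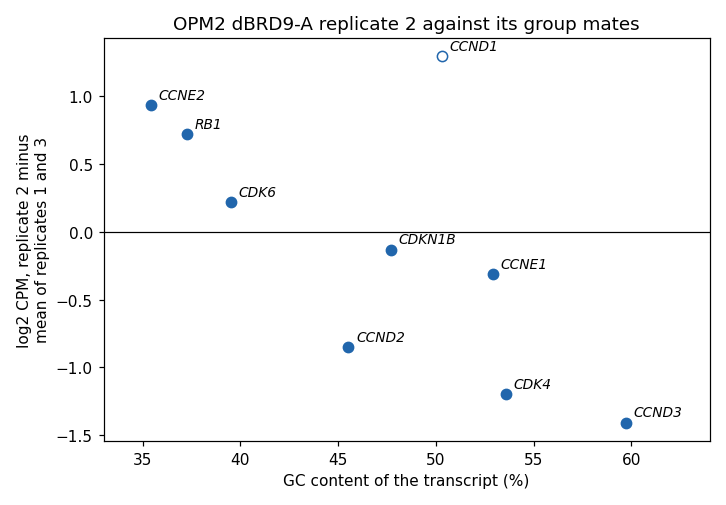
Log2 CPM of OPM2 dBRD9-A replicate 2 minus the mean of replicates 1 and 3 (y axis) against transcript GC content in percent (x axis), 1 point per gene. CCND1 is drawn open because it rests on 19 counts in the group. CCNE2, RB1 and CDK6, the 3 genes of lowest GC content, lie above 0, as does CCND1, and the other 5 lie below.

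Other genes of the G1 network were taken from lists. Among 30 replication genes that E2F switches on at the border of G1 and S, 17 fell in H929 and 15 fell in OPM2. None rose by edgeR, at an unadjusted p under 0.05, by DESeq2 or by limma-voom. Calls toward lower levels made up 5.67% of all symbols in H929 and 7.34% in OPM2. The median log2 fold changes of the list were -0.47 in H929 and -0.46 in OPM2. MCM10, which helps load the replication machinery, averaged 70.0 ± 1.12 CPM with dBRD9-A and 114 ± 6.66 CPM with DMSO in H929 (log2 fold change -0.71 ± 0.10, adjusted p = 0.00132). In OPM2 it averaged 97.4 ± 9.57 CPM with dBRD9-A and 157 ± 8.23 CPM with DMSO (-0.69 ± 0.10, adjusted p = 0.00115). UNG, a DNA repair glycosylase, fell by 0.76 ± 0.20 in H929 (adjusted p = 0.0257) and by 0.88 ± 0.20 in OPM2 (adjusted p = 0.0109). Without OPM2 dBRD9-A replicate 2 the counts were 24 lower and 1 higher in H929, and 21 lower and 0 higher in OPM2. In that fit more of all symbols were called, with 16.5% lower and 19.2% higher in H929, and 15.6% lower and 16.1% higher in OPM2. These shares stand behind each count without that library below. Of the 16408 symbols with all libraries, DESeq2 called 3149 in H929 and 4092 in OPM2. Limma-voom called 5910 in H929 and 7243 in OPM2. These totals stand behind each treatment count by DESeq2 or limma-voom below. No share of all symbols was taken at an unadjusted p under 0.05 in the treatment comparisons.

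Mitotic genes of the G2/M list were rarely called by edgeR, which called 13.0% of all symbols in H929 and 17.4% in OPM2. Of 23, 0 were called in H929 by edgeR, 0 had an unadjusted p under 0.05, DESeq2 called 0 and limma-voom called 3. In OPM2, NUSAP1, a spindle protein, rose by edgeR (0.63 ± 0.17, adjusted p = 0.0270), and 5 genes were higher and 1 lower at an unadjusted p under 0.05. DESeq2 called 3 higher there, and limma-voom called 4 higher and 1 lower. Without OPM2 dBRD9-A replicate 2, 3 were higher and 1 was lower in H929. The list medians were 0.08 in H929 and 0.14 in OPM2.

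Among 19 E2F, DP and DREAM factors, 2 rose and 2 fell in H929, and 2 rose and 3 fell in OPM2. Of all symbols, 7.33% rose and 5.67% fell in H929, and 10.1% rose and 7.34% fell in OPM2. Counts of 2 in a list of 19 are not far from those shares, and the 3 that fell in OPM2 are somewhat above. TFDP1, the dimer partner of E2F proteins, fell by 0.52 ± 0.14 in H929 (adjusted p = 0.0315) and by 0.54 ± 0.14 in OPM2 (adjusted p = 0.0220). E2F7, a repressor of E2F targets, rose by 0.53 ± 0.13 in H929 (adjusted p = 0.0219) and by 0.43 ± 0.13 in OPM2 (adjusted p = 0.0436). RBL2, a pocket protein related to RB1, rose by 0.41 ± 0.10 in H929 (adjusted p = 0.0217). Without OPM2 dBRD9-A replicate 2, 4 were higher and 9 lower in H929, and 3 were higher and 6 lower in OPM2. In that fit 16.5% of all symbols were lower in H929 and 15.6% in OPM2, and the counts of 9 and 6 lie above these shares.

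Of 6 other CDK inhibitors, 2 rose in OPM2 and 0 were called in H929 by edgeR, where 2 had an unadjusted p under 0.05, DESeq2 called 0 and limma-voom called 1. Higher calls made up 10.1% of all symbols in OPM2 and 7.33% in H929. CDKN1C, an inhibitor of the CDKN1B family, averaged 3.50 ± 0.82 CPM with dBRD9-A and 1.54 ± 0.38 CPM with DMSO in OPM2 (1.20 ± 0.29, adjusted p = 0.0147). CDKN2B, a CDK4 and CDK6 inhibitor of the same family as CDKN2C, averaged 11.4 ± 1.39 CPM with dBRD9-A and 6.13 ± 1.82 CPM with DMSO in OPM2 (0.90 ± 0.20, adjusted p = 0.0109). In H929 the values were 0.77 ± 0.33 for CDKN1C (adjusted p = 0.149) and 0.56 ± 0.21 for CDKN2B (adjusted p = 0.106), and 3 of the 6 were called higher there without OPM2 dBRD9-A replicate 2, where 19.2% of all symbols were. Among 11 other G1/S kinases, partners and phosphatases, CDC25A, the phosphatase that activates CDK2, fell by 0.90 ± 0.17 in H929 (adjusted p = 0.00531) and by 0.87 ± 0.17 in OPM2 (adjusted p = 0.00544), and edgeR called no other. DESeq2 called 2 lower in H929 and 1 lower in OPM2, and limma-voom called 3 lower in H929, and 3 lower and 2 higher in OPM2. Among 16 ubiquitin ligase genes, DTL, a substrate receptor of a CUL4 ligase, fell by 0.54 ± 0.10 in H929 (adjusted p = 0.00575) and by 0.48 ± 0.10 in OPM2 (adjusted p = 0.00883), and edgeR called no other. Lower edgeR calls made up 5.67% of all symbols in H929 and 7.34% in OPM2. A count of 1 in a list of 11 or 16 is not far from those shares. Of the ligase genes, DESeq2 called 1 lower in H929, and 2 lower and 1 higher in OPM2. Limma-voom called 4 lower in H929, and 5 lower and 2 higher in OPM2. For both lists the limma-voom counts stand against 5910 of 16408 symbols called in H929 and 7243 in OPM2. Without OPM2 dBRD9-A replicate 2, 2 kinase-list genes were lower in H929, and 3 lower and 1 higher in OPM2, while the ligase list had 5 lower in H929 and 4 lower in OPM2.

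Of 14 upstream regulators of D cyclins, 1 rose and 6 fell in H929, and 2 rose and 4 fell in OPM2. The shares of all symbols were 7.33% higher and 5.67% lower in H929, and 10.1% higher and 7.34% lower in OPM2. The counts without OPM2 dBRD9-A replicate 2 were 4 higher and 6 lower in H929, and 2 higher and 4 lower in OPM2. MYC fell by 1.72 ± 0.26 in H929 (adjusted p = 0.00183) and by 1.33 ± 0.26 in OPM2 (adjusted p = 0.00544). MYB, a transcription factor of immature blood cells, averaged 5.85 CPM with dBRD9-A and 20.4 CPM with DMSO in H929 (-1.80 ± 0.17, adjusted p = 0.000168), and 50.5 CPM with dBRD9-A and 107 CPM with DMSO in OPM2 (-1.08 ± 0.16, adjusted p = 0.00131). FGFR3, a growth factor receptor, fell by 1.33 ± 0.31 in H929 (adjusted p = 0.0144) and by 1.56 ± 0.31 in OPM2 (adjusted p = 0.00553). MAF, a transcription factor known to drive CCND2 in myeloma, averaged 135 CPM with dBRD9-A and 55.0 CPM with DMSO in OPM2 and rose by 1.30 ± 0.20 (adjusted p = 0.00152). KLF2, a factor of quiescent lymphocytes, fell by 1.03 ± 0.21 in H929 (adjusted p = 0.00866). For the difference of the responses, 0 of the 119 genes of these lists were called by edgeR, against 0.579% of all symbols. At an unadjusted p under 0.05 there were 10, against 8.60% of all symbols, and the count of 10 is close to that share. DESeq2 called 1 of the 119 genes and 372 of all symbols. Limma-voom called 4 of the 119 genes and 882 of all symbols.

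For CCND1, CCND2, CDKN2C and CDK4, which were called in a treatment comparison, the symbols most alike were taken by Pearson correlation of log2 CPM over the 12 libraries, among 9355 symbols. They were PPFIBP2, SSX1 and THG1L for CCND1, NAP1L4, TUBGCP3 and JADE1 for CCND2, and MAP1B, BEND4 and F2R for CDKN2C, with correlations of 0.993 to 0.999. For CDK4 they were TRMT61A, SNHG15 and PPIF (0.986 to 0.989). These libraries share 2 lines and 1 treatment, so the points are not independent. In DMSO, CCND1 and CCND2 differed between the lines by 11.46 and -6.19 on the log2 scale, and CDKN2C had no counts in OPM2. For CCND1, CCND2 and CDKN2C these correlations therefore cannot tell a shared response to dBRD9-A from the difference between the lines.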

How the data were processed

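Per the labels' protocols, poly(A) RNA of cultured cells was sequenced from stranded libraries. Per the submitters' processing notes, STAR, featureCounts, hg19 and GRCh37 were used, without versions, and how strand was treated in counting is not stated in the labels or notes. Per the file headers, each of 12 files holds 51780 transcripts with their count, FPKM and TPM. The deposited counts are whole and not normalised. The deposited FPKM values served to recover transcript length, and the deposited TPM values were compared with them and not used further. Reads shared by transcripts of a gene were counted for each, so CCND3 had 6 rows and CDK6 and CDKN2C 2 rows, and the row with the highest mean count was used. The second CDKN2C row held 64.1% to 67.5% of the first in H929.

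Counts were filtered with filterByExpr, scaled by TMM and tested in R 4.3.3 with edgeR 4.0.16 (mean per group, 8 residual degrees of freedom). SE is the log2 fold change divided by the root of F. The steps were tested on simulated data. DESeq2 1.42.0, limma 3.58.1 and the other alternatives are given in the closing section. No replicate pair held identical values. Whether replicates were separate cultures is not in the labels, and p-values cover only library-to-library spread, which may be technical. The 10 genes, the lists and the tests were chosen with earlier results of these data known. Named from each list were up to 4 called genes with the largest change, or 2 uncalled ones, and for each called member the 3 most correlated symbols (those of CCNE1 are not reported here). The text takes a part of these.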

Additional observations from a re-analysis of the deposited data

How the results depend on the processing

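The number of the 10 genes called in OPM2 was 2 and became 1 with library size alone (RB1), 4 with limma-voom (CCND3, CDK4, RB1 and CCNE1), 0 with OPM2 fitted alone and 0 to 4 when 1 library was left out. In H929 it was 4, and 2 to 6 when 1 library was left out. There it became 6 with limma-voom, 6 with H929 fitted alone and 6 with the GC trend removed, with CDK4 and RB1 added each time. For the difference of responses it was 0, became 1 with DESeq2 and 1 with limma-voom, and 0 to 1 when 1 library was left out, and for the lines in DMSO it was 6, and 6 to 7 when 1 library was left out. With the replicate number as a block, 0 genes were called in OPM2 and 2 in H929. In their deviations from the group mean, same-numbered dBRD9-A and DMSO libraries correlated at 0.30, -0.02 and -0.12 in OPM2 and -0.12, -0.17 and -0.12 in H929. These values cannot decide whether the numbers mark pairs, because such deviations also followed GC content. In H929, dBRD9-A replicates 1, 2 and 3 correlated best with DMSO replicates 3, 1 and 2 (0.65, 0.52 and 0.70), a hint from the data and not the design, and the numbers were not crossed.

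Genes near 0 changed sign. CDK6 in OPM2 was 0.0043 with library size alone and 0.013 with a filter of 1 CPM in 3 libraries. In H929, CCND3 and CDKN1B were 0.00055 and 0.0035 with RLE factors, 0.057 and 0.056 with library size alone, 0.00069 and 0.0037 with DESeq2, 0.0021 and 0.0034 with the 1 CPM filter, 0.035 and 0.016 with the GC trend removed, and 0.047 and 0.012 with that and the block. For the difference of responses, CDK4 was -0.017 and RB1 was 0.11 with limma-voom, and RB1 was 0.13 with the GC trend removed, with or without the block. Leaving out 1 library gave -0.15 to 0.071 for CCND3 and -0.10 to 0.12 for CDKN1B in H929, and -0.17 to 0.41 for CCND3 and -0.12 to 0.031 for CDK6 in OPM2. For the difference it gave -0.41 to 0.13 for CCND3, -0.043 to 0.43 for CDK4, -0.26 to 0.024 for CDK6 and -0.27 to 0.19 for RB1. The causes were not tested.

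Over all symbols, 2857 were called in OPM2, against 7243 with limma-voom, 871 with the line alone, 4413 with the GC trend removed and 1381 to 5277 leaving out 1 library. In H929, 2134 were called, against 5910, 4970, 3689 (3355 with the block too) and 812 to 5946. For the difference, 95 were called, against 372 with DESeq2, 882 with limma-voom, 33 with the block, 228 with the GC trend removed (150 with the block too) and 35 to 507. With library size alone the share of higher calls was 69.4% against 57.8% in OPM2 and 71.8% against 56.4% in H929.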
